A study of Mus musculus with 24 samples.

Results

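The transcripts of 6 connexins were followed in bulk RNA sequencing of the corpus callosum of mice. This white matter tract connects the cerebral hemispheres. The genes were Gjb1 and Gjc3, which encode the oligodendrocyte connexins Cx32 and Cx29, Gja1, Gjb6 and Gjb2, which encode the astrocyte connexins Cx43, Cx30 and Cx26, and Gjd2, which encodes the neuronal connexin Cx36. They are 6 of 54446 genes in the deposited table, and 13 other connexin genes of the table were analysed beside them. They were selected on their FPKM in the 4 groups of these same libraries, so their levels and differences are descriptions and carry no p-value.

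There were 24 libraries in 4 groups. The groups were cuprizone mice given BTKi (n = 8), cuprizone mice given vehicle (n = 8), naive mice given BTKi (n = 4) and naive mice given vehicle (n = 4). Cuprizone is a copper chelator that, when fed to mice, kills oligodendrocytes and demyelinates the corpus callosum, and BTKi is an inhibitor of Bruton's tyrosine kinase, a signalling kinase of B cells and myeloid cells. Per the design text the inhibitor was given after the disease had been induced, and naive mice are labelled as having received it as well. The sources used here do not give the compound, its dose, the feeding times or the strain, sex and age of the mice, nor whether each library came from a separate mouse, so the p-values below measure the spread between libraries, which may be partly technical.

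A connexin protein crosses the membrane repeatedly, and hexamers of it form hemichannels that dock with those of a neighbouring cell to make a gap junction. In white matter, astrocytes are coupled to each other and to oligodendrocytes in a network through which potassium ions, water and metabolites pass. Oligodendrocyte Cx32 pairs mainly with astrocyte Cx30. Cx29 lies in the innermost myelin layer facing the axon and is not known to dock with astrocyte channels. Mutations of human GJB1 cause an X-linked Charcot-Marie-Tooth neuropathy.

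The 6 proteins share a signature in the first extracellular loop, where 3 cysteines are needed for the hemichannels to dock. The 36 bases that encode this signature are shown to compare the members, with the 3 cysteine codons in capitals, from the GENCODE M21 transcripts on GRCm38:
Gjb1, chrX:101384324-101384359, plus strand: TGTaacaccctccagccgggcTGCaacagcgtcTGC
Gjc3, chr5:137957797-137957832, minus strand: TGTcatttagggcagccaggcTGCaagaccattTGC
Gja1, chr10:56387706-56387741, plus strand: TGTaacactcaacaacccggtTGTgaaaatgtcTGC
Gjb6, chr14:57124611-57124646, minus strand: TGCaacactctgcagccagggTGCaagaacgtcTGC
Gjb2, chr14:57100558-57100593, minus strand: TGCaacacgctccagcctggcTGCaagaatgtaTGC
Gjd2, chr2:114011797-114011832, minus strand: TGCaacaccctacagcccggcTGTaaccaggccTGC
The stretches of Gjb6 and Gjb2, neighbours on the minus strand of chromosome 14, were the most alike of the 15 pairs, with 30 of 36 bases the same (83.3%). Gjc3 was the most divergent member, with 18 of 36 bases (50.0%) shared with Gja1 and as many with Gjd2. The members' longest identical run with any other connexin transcript was 42 bases, between Gjc3 and Gje1, and Gje1 was listed at 0 in all 24 libraries.

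Values are FPKM, a fragment count scaled to gene length and to the total of the library, as deposited. Steps between low values gave an estimated 26500000 to 30900000 fragments per library, and the rarest member, Gjd2, then rests on an estimated 115 to 175 fragments in each. Groups were compared with limma on log2(FPKM + 0.5) over 15216 genes with a mean of at least 0.5 FPKM, which all 6 members passed, and a gene was called at a Benjamini-Hochberg adjusted p under 0.05. A difference on this scale understates the change of low genes.

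Mature oligodendrocyte markers were high in every library, and markers of tissue beside the corpus callosum were present too. The summed level of 15 mature oligodendrocyte markers was 1472 to 3034 FPKM in cuprizone BTKi libraries, 1322 to 2156 FPKM in cuprizone vehicle libraries, 3343 to 3397 FPKM in naive BTKi libraries and 3850 to 5414 FPKM in naive vehicle libraries, with no marker at 0 throughout. The summed level of 9 neuron markers was 2102 to 2531 FPKM over all libraries, and that of 6 choroid plexus markers 397 to 1254 FPKM in cuprizone BTKi, 29.7 to 1516 FPKM in cuprizone vehicle, 468 to 2519 FPKM in naive BTKi and 1149 to 1823 FPKM in naive vehicle libraries. The summed level of 8 striatal neuron markers was 121 to 672 FPKM over all libraries. Naive vehicle 2 stood apart from its group. A score is the mean over a list of log2(FPKM + 0.5) less each gene's mean over all libraries. For the 15 mature oligodendrocyte markers the score of naive vehicle 2 was 1.27, against 0.78 to 0.84 in the other naive vehicle libraries. Its score for 8 striatal neuron markers was 1.59 against 0.02 to 0.73. Cuprizone vehicle 1, 4 and 7 were low in choroid plexus markers, with the lowest scores, down to -2.76.

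Gjb1 was the member with the lowest level in cuprizone relative to naive mice. Its lowest, median and highest values were 3.63, 5.27 and 10.6 FPKM in the 8 cuprizone BTKi libraries, and 4.17, 5.25 and 8.24 FPKM in the 8 cuprizone vehicle libraries. The 4 naive BTKi libraries had 11.4, 11.2, 10.1 and 9.63 FPKM, and the 4 naive vehicle libraries 13.2, 20.6, 12.8 and 13.6 FPKM. Under vehicle every cuprizone library lay below every naive library, while under BTKi only cuprizone BTKi 4, with 10.6 FPKM, reached into the naive range. The mean was 36.8% of the naive mean under vehicle, a log2 difference of -1.37 (SE 0.21), and 57.4% of it under BTKi, a log2 difference of -0.83 (SE 0.21). In bulk tissue such a difference cannot be divided between fewer cells of a type and less RNA per cell.

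Gjc3, the other oligodendrocyte member, differed less. It had a lowest, median and highest value of 9.71, 11.8 and 15.3 FPKM in cuprizone BTKi libraries, and of 10.2, 12.5 and 16.6 FPKM in cuprizone vehicle libraries. Naive BTKi libraries had 13.5, 11.8, 14.3 and 12.3 FPKM, and naive vehicle libraries 18.0, 22.5, 15.2 and 17.3 FPKM. Only the naive vehicle group stood apart, and 1 cuprizone vehicle library, at 16.6 FPKM, overlapped it. The log2 difference of cuprizone from naive mice was -0.50 (SE 0.12) under vehicle and -0.09 (SE 0.12) under BTKi. Without naive vehicle 2 the differences under vehicle were -1.21 (SE 0.22) for Gjb1 and -0.40 (SE 0.12) for Gjc3.

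**Figure D1:**
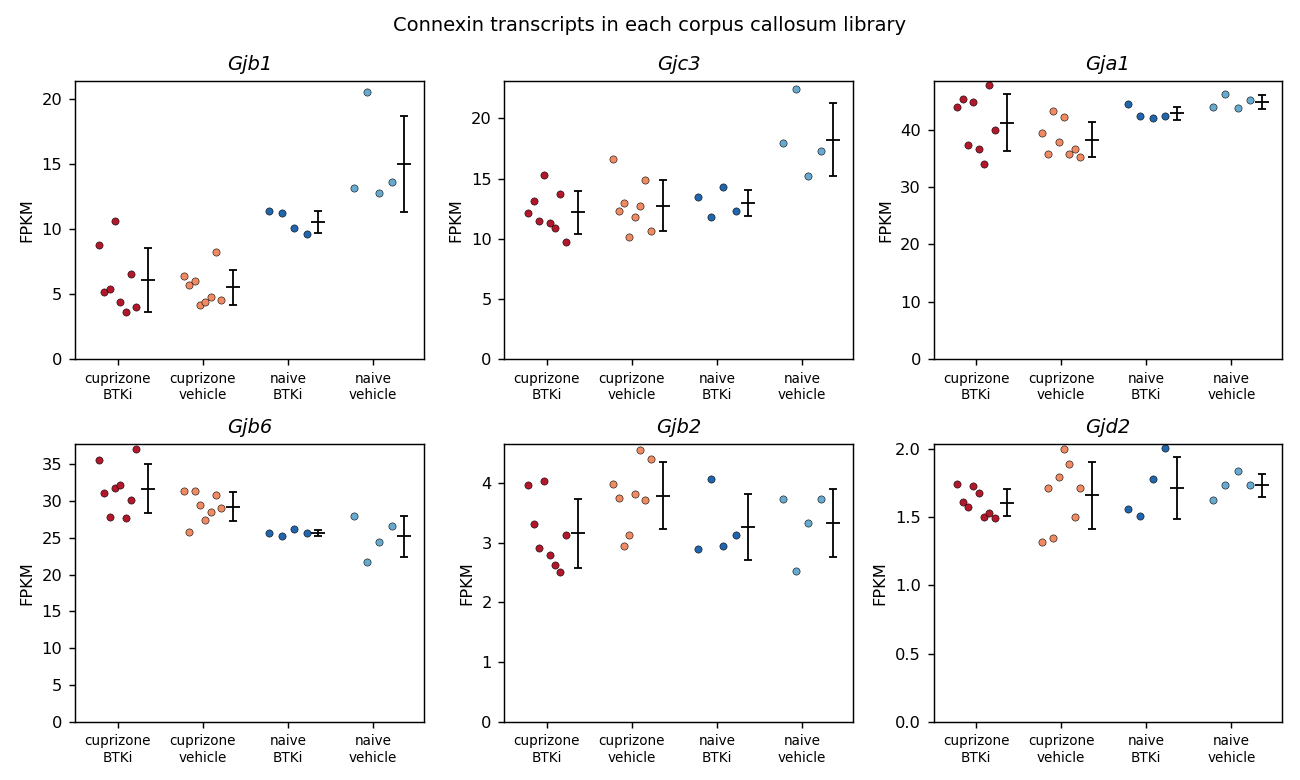
Level of each connexin in FPKM (linear axis from 0) in every library of the 4 groups, with the group mean and SD as bars beside the points (n = 8, 8, 4 and 4). Gjb1 is low in both cuprizone groups (means 6.07 and 5.54 FPKM) and highest in naive vehicle libraries (mean 15.0 FPKM), Gjb6 is higher in cuprizone than in naive libraries, and Gjd2 stays between 1.32 and 2.00 FPKM in all groups.

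Within a library, Gjb1 relative to Gjc3 was also lower in cuprizone mice. The ratio of their FPKM was 0.487 ± 0.146 in cuprizone BTKi, 0.432 ± 0.061 in cuprizone vehicle, 0.821 ± 0.103 in naive BTKi and 0.820 ± 0.077 in naive vehicle libraries (SD, n = 8, 8, 4 and 4). Under vehicle the cuprizone ratios, 0.374 to 0.554, lay below the naive ones, 0.736 to 0.916. Under BTKi the cuprizone ratios ran from 0.334 to 0.727 and overlapped the naive ones, 0.705 to 0.950.

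The mature oligodendrocyte list, myelin genes chosen as markers, fell in both arms, where Gjb1 was lower in both and the BTKi difference of Gjc3 was within its SE. Of its 15 genes, 14 fell and none rose in cuprizone mice in each arm by limma, with a median log2 difference of -1.35 under vehicle and -1.02 under BTKi, against 0.03 and 0.02 over all genes tested. The exception in both arms was Trf, transferrin, at -0.28 under vehicle (limma adjusted p = 0.19) and 0.34 under BTKi (limma adjusted p = 0.17). Under BTKi its difference was opposite in sign to the other 14, and all 15 genes had an unadjusted p under 0.05 by limma. Mbp, the most abundant gene of the list and the myelin basic protein gene, fell by 1.33 under vehicle (SE 0.15, limma adjusted p = 1.1e-06) and by 0.82 under BTKi (SE 0.15, limma adjusted p = 0.00075). The differences of Gjb1 lay near the list's median and those of Gjc3 nearer to 0 than the median. The part of oligodendrocyte number in the levels of Gjb1 and Gjc3 was not tested.

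Gja1 was the most abundant member in every group. Cuprizone BTKi libraries had a lowest, median and highest value of 34.1, 42.0 and 47.8 FPKM, and cuprizone vehicle libraries of 35.2, 37.2 and 43.2 FPKM. Naive BTKi libraries had 44.5, 42.4, 42.1 and 42.4 FPKM, and naive vehicle libraries 44.1, 46.3, 43.8 and 45.2 FPKM. The naive values were tight and the cuprizone values wide, and under vehicle every cuprizone library lay below every naive one, by as little as 43.2 against 43.8 FPKM. The log2 difference was -0.23 (SE 0.07) under vehicle, or -0.21 (SE 0.08) without naive vehicle 2, and -0.06 (SE 0.07) under BTKi.

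Gjb6, the partner of Gjb1 across the junction, was the only member higher in cuprizone mice in both arms. It had a lowest, median and highest value of 27.8, 31.5 and 37.0 FPKM in cuprizone BTKi libraries, and of 25.8, 29.3 and 31.4 FPKM in cuprizone vehicle libraries. Naive BTKi libraries had 25.6, 25.2, 26.2 and 25.6 FPKM, and naive vehicle libraries 28.0, 21.8, 24.4 and 26.6 FPKM. Under BTKi all 8 cuprizone libraries were above all 4 naive ones, and under vehicle the groups overlapped. The log2 difference was 0.29 (SE 0.07) under BTKi and 0.22 (SE 0.07) under vehicle, or 0.15 (SE 0.07) under vehicle without naive vehicle 2.

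The ratio of Gjb6 to Gja1 within a library was 0.774 ± 0.10 in cuprizone BTKi, 0.767 ± 0.064 in cuprizone vehicle, 0.599 ± 0.019 in naive BTKi and 0.563 ± 0.070 in naive vehicle libraries (SD, n = 8, 8, 4 and 4). In both arms the cuprizone ratios lay above the naive ones, from 0.629 against at most 0.622 under BTKi, and from 0.650 against at most 0.636 under vehicle. The margins were thus small beside the spread of the cuprizone groups.

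**Figure D2:**
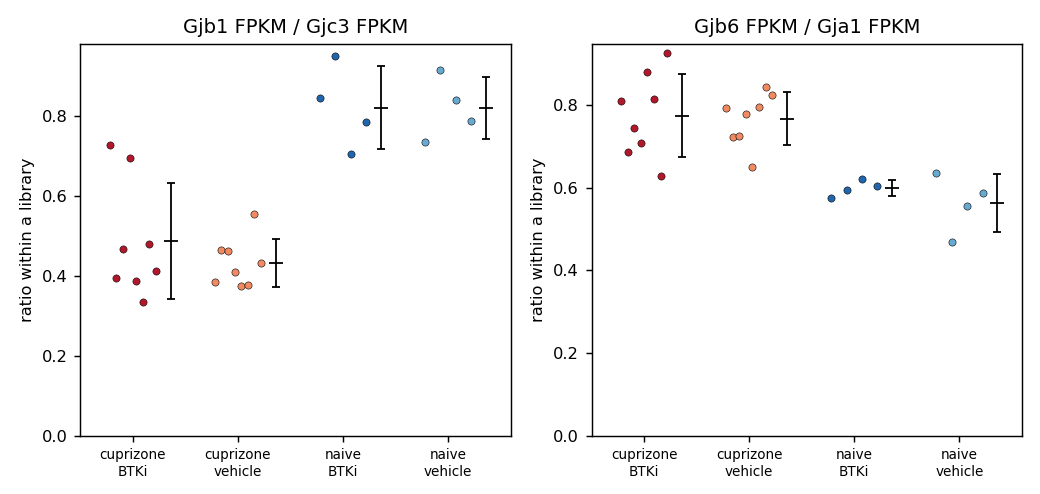
Ratio of FPKM within each library (linear axes from 0) for Gjb1 over Gjc3 and for Gjb6 over Gja1 in the 4 groups, with mean and SD bars (n = 8, 8, 4 and 4). The oligodendrocyte ratio averages 0.487 and 0.432 in the cuprizone groups and 0.821 and 0.820 in the naive groups, and the astrocyte ratio 0.774 and 0.767 against 0.599 and 0.563.

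Gjb2 was far below the other astrocyte connexins. It ran from 2.51 over a median of 3.02 to 4.04 FPKM in cuprizone BTKi libraries, and from 2.95 over 3.79 to 4.56 FPKM in cuprizone vehicle libraries. Naive BTKi libraries had 2.90, 4.08, 2.94 and 3.13 FPKM, and naive vehicle libraries 3.73, 2.53, 3.33 and 3.74 FPKM. All 4 groups overlapped. The cuprizone difference was 0.17 (SE 0.12) under vehicle, or 0.06 (SE 0.13) without naive vehicle 2, and -0.04 (SE 0.12) under BTKi, and the largest difference of Gjb2 was between the cuprizone groups, -0.23 (SE 0.10) for BTKi against vehicle.

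Gjd2, which couples inhibitory interneurons through electrical synapses, was the lowest member. It ran from 1.49 over a median of 1.59 to 1.75 FPKM in cuprizone BTKi libraries, and from 1.32 over 1.71 to 2.00 FPKM in cuprizone vehicle libraries. Naive BTKi libraries had 1.56, 1.51, 1.78 and 2.00 FPKM, and naive vehicle libraries 1.63, 1.73, 1.84 and 1.74 FPKM. All groups overlapped, and its 4 log2 differences lay between -0.07 and -0.02. Gjd2 overlaps the antisense gene A530058N18Rik by 57 bases, and whether the counting used strand is not given, so fragments there could belong to either gene. None of 9 neuron markers and none of 7 inhibitory neuron markers was called by limma in either cuprizone comparison, where 2 neuron markers in each arm and 2 inhibitory neuron markers under vehicle had an unadjusted p under 0.05.

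The order of the group means differed between members. For Gjb1 it was naive vehicle (15.0 ± 3.70 FPKM), naive BTKi (10.6 ± 0.86), cuprizone BTKi (6.07 ± 2.48) and cuprizone vehicle (5.54 ± 1.36), and only the last neighbours in that order differed by less than the larger SD. For Gjc3 naive vehicle (18.2 ± 3.05 FPKM) led, and the other groups, at 13.0 ± 1.11, 12.8 ± 2.13 and 12.2 ± 1.77 FPKM in naive BTKi, cuprizone vehicle and cuprizone BTKi, did not differ beyond their spread. For Gja1 the order was that of Gjb1, from 44.8 ± 1.16 to 38.3 ± 3.10 FPKM, with only the 2 naive groups apart by more than the larger SD. For Gjb6 it was cuprizone BTKi (31.7 ± 3.31 FPKM), cuprizone vehicle (29.2 ± 1.96), naive BTKi (25.7 ± 0.40) and naive vehicle (25.2 ± 2.73), with the step between the cuprizone and naive groups alone larger than the spread. No neighbours in the order of Gjb2 or Gjd2 differed beyond their spread.

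**Figure D3:**
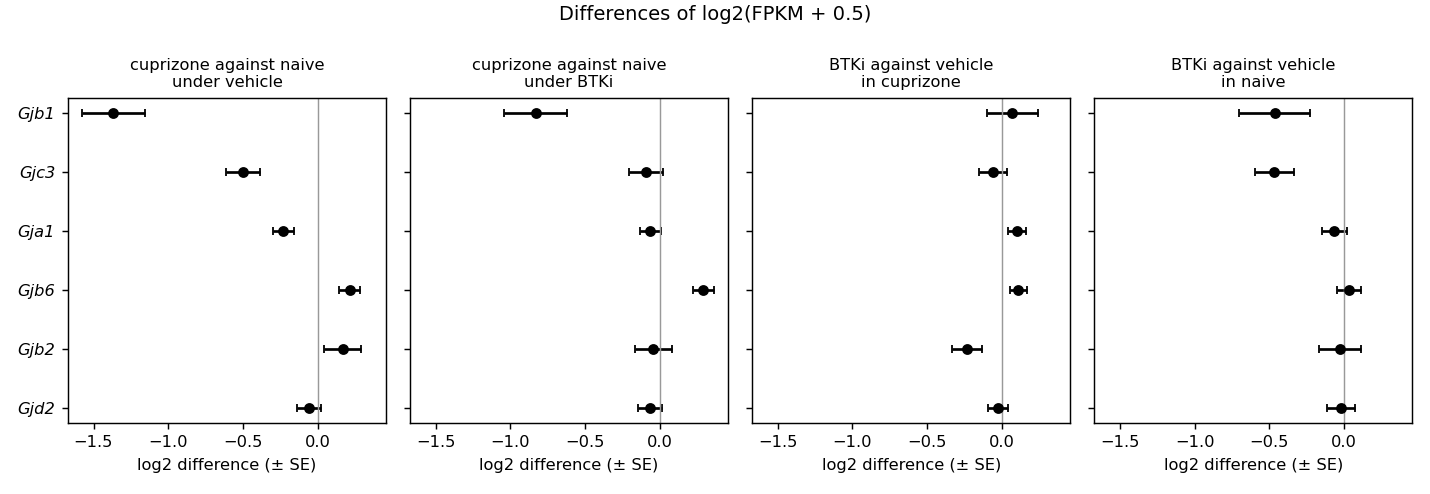
Log2 difference of log2(FPKM + 0.5) with its SE for the 6 connexins in 4 comparisons, from the limma model. Gjb1 lies furthest below 0 in cuprizone against naive mice under vehicle (-1.37), Gjb6 lies above 0 in both arms (0.22 and 0.29), and the BTKi differences in cuprizone mice lie between -0.23 and 0.11.

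The counts over the 6 members follow from genes picked for these levels, and nothing is read from them. In cuprizone against naive mice under vehicle 1 member was called higher and 3 lower, where 10.2% of all genes tested were called higher and 4.82% lower. Groups did not overlap for 2 members, both lower (Gjb1 and Gja1), against 2.85% of all genes in that direction. Under BTKi 1 member was called higher and 1 lower (Gjb6 and Gjb1), against 6.11% and 1.77% of all genes, and the groups did not overlap for 1, Gjb6, higher, against 5.70%. Under vehicle 1555 genes were called higher and 733 lower, and with median ratio scaling these numbers were 1229 and 978. Under BTKi they were 929 and 269, and with that scaling 772 and 406. The call of Gja1 under vehicle ended in 5 of 32 alternative fits and that of Gjb6 in 11 of 32. The calls of Gjb1 in both arms, of Gjc3 under vehicle and of Gjb6 under BTKi ended in none of 32. These fits include those without a library outside the comparison, which leave the difference unchanged, so they are not 32 separate checks.

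BTKi against vehicle in cuprizone mice asks whether the inhibitor moved the connexins once the disease had been induced. No member was called by limma, where 0.177% of all genes were called and 1338 of 15216 had an unadjusted p under 0.05, and the groups overlapped for every member, where they did not overlap for 0.131% of all genes. The log2 differences were 0.07 (SE 0.17) for Gjb1, -0.06 (SE 0.09) for Gjc3, 0.10 (SE 0.06) for Gja1, 0.11 (SE 0.06) for Gjb6, -0.23 (SE 0.10) for Gjb2 and -0.03 (SE 0.07) for Gjd2. Cuprizone BTKi 4 and 1 had the highest Gjb1 values of the cuprizone libraries, 10.6 and 8.81 FPKM. Cuprizone BTKi 4 was also the cuprizone library with the highest mature oligodendrocyte score, 0.31.

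In naive mice, both oligodendrocyte members were lower under BTKi than under vehicle. The log2 difference was -0.46 (SE 0.24) for Gjb1 and -0.47 (SE 0.13) for Gjc3, and the groups did not overlap for either, against 4.93% of all genes in that direction. The other members differed by -0.06 to 0.03, or by -0.13 (Gjb2) to -0.02 without naive vehicle 2. No member was called by limma, where 0.217% of all genes were called and 1922 had an unadjusted p under 0.05. The vehicle libraries of this comparison also serve as the controls of the cuprizone comparison under vehicle. Without naive vehicle 2 the differences were -0.31 (SE 0.25) for Gjb1 and -0.36 (SE 0.14) for Gjc3. The 15 mature oligodendrocyte markers had a median log2 difference of -0.32 here, with none called by limma and 3 at an unadjusted p under 0.05. The 8 striatal markers had a median of -0.48, with none called and 1 at an unadjusted p under 0.05. The part of both lists in the connexin differences was not tested.

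The drug difference in cuprizone mice less that in naive mice was 0.54 (SE 0.29) for Gjb1, 0.41 (SE 0.16) for Gjc3 and 0.17 (SE 0.10) for Gja1 on the log2 scale, and from -0.21 to 0.08 for the other 3. Without naive vehicle 2 it was 0.38 (SE 0.30) for Gjb1, 0.30 (SE 0.16) for Gjc3 and 0.15 (SE 0.11) for Gja1, and from -0.10 to 0.14 for the other 3. No member was called, where 0.125% of all genes were called and 1482 had an unadjusted p under 0.05. The 15 mature oligodendrocyte markers had differences of 0.19 to 0.82 here (median 0.51), with none called by limma and 10 at an unadjusted p under 0.05. The 8 striatal neuron markers had a median of 0.62, with none called and 2 at an unadjusted p under 0.05, and the 6 choroid plexus markers a median of 1.09, with none called and none at an unadjusted p under 0.05. The part of these lists in the connexin values was not tested.

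Of 16 other connexins and pannexins analysed, 4 passed the level filter. None was called by limma in either cuprizone comparison, where Gjc1 under BTKi had an unadjusted p under 0.05. Gjc1, which encodes Cx45 of mural cells and some neurons, was at 2.72 ± 0.28 FPKM in cuprizone BTKi, 2.23 ± 0.17 in cuprizone vehicle, 2.17 ± 0.11 in naive BTKi and 2.76 ± 1.31 FPKM in naive vehicle libraries (SD, n = 8, 8, 4 and 4). Its log2 difference of cuprizone from naive mice was 0.26 under BTKi (limma adjusted p = 0.27) and -0.18 under vehicle (limma adjusted p = 0.37). Under BTKi its cuprizone and naive libraries did not overlap, and without naive vehicle 2, the library with 4.71 FPKM, the adjusted p by limma was 0.018 in that comparison. Gja4, an endothelial connexin, differed by -0.18 under vehicle (limma adjusted p = 0.21) and by -0.12 under BTKi (limma adjusted p = 0.57).

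The pannexins form channels of similar shape that do not usually dock between cells. Panx2, at 43.1 ± 2.57 to 45.5 ± 2.06 FPKM in the 4 groups, had a level per length near that of Gja1, and its cuprizone differences were 0.05 under vehicle (limma adjusted p = 0.67) and 0.07 under BTKi (limma adjusted p = 0.63). Panx1 had 6.37 ± 0.25 FPKM in cuprizone BTKi and 7.38 ± 1.02 FPKM in cuprizone vehicle libraries (SD, n = 8 each), a log2 difference of -0.19 (limma adjusted p = 0.37). None of the 4 genes was called by limma in either drug comparison, where Gjc1 and Panx1 in cuprizone mice had an unadjusted p under 0.05.

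Summed over the 19 connexins analysed, FPKM was 100.9 ± 10.1 in cuprizone BTKi, 95.6 ± 5.79 in cuprizone vehicle, 101.5 ± 1.83 in naive BTKi and 113.4 ± 6.50 in naive vehicle libraries (SD, n = 8, 8, 4 and 4). Gjb1 and Gjc3 together made up 18.0%, 19.1%, 23.2% and 29.2% of that sum in the same order of groups. The astrocyte connexins Gja1, Gjb6 and Gjb2 made up 75.5%, 74.7%, 70.7% and 64.9%. Under vehicle every cuprizone library had a smaller share of Gjb1 and Gjc3 than every naive library, at most 23.1% against at least 26.4%. Under BTKi the groups overlapped, with up to 22.9% in cuprizone and at least 22.0% in naive libraries. A share of a sum falls in one class when it grows in another, so these are not independent of each other.

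**Figure D4:**
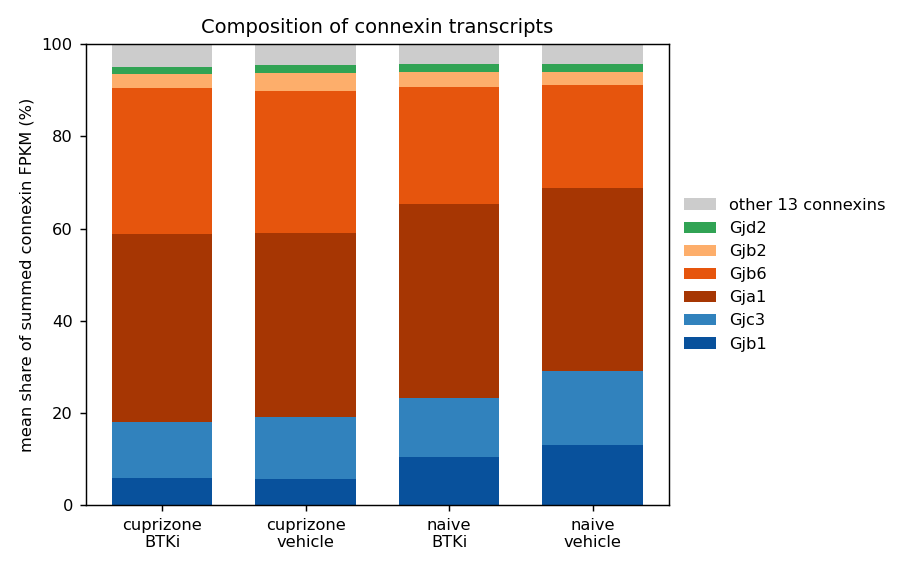
Mean share of each connexin in the summed FPKM of the 19 connexins analysed (linear axis from 0 to 100%), by group, as stacked bars without error bars. Gjb1 and Gjc3, in blue, make up 18.0% and 19.1% in the cuprizone groups and 23.2% and 29.2% in the naive groups, and the astrocyte connexins, in orange, 75.5%, 74.7%, 70.7% and 64.9%.

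Astrocyte markers did not move as one list. Of 10 general astrocyte markers, 3 rose and none fell in cuprizone mice under vehicle (median log2 difference 0.08), and 5 rose and none fell under BTKi (median 0.22). Of 9 reactive astrocyte markers that passed the filter, all 9 rose under vehicle (median 1.36) and 8 under BTKi (median 1.35). Gfap, the most abundant of them and the intermediate filament gene of reactive astrocytes, rose by 1.85 under vehicle (SE 0.13, limma adjusted p = 1.0e-09) and by 1.93 under BTKi (SE 0.13, limma adjusted p = 5.9e-10). The differences of Gja1, Gjb6 and Gjb2, from -0.23 to 0.29, were small beside those.

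Markers of other cells differed between the groups as well. In cuprizone mice 5 of 7 microglia markers rose in each arm (median log2 difference 0.93 under vehicle and 0.84 under BTKi). Of 7 newly formed oligodendrocyte markers 2 rose and 1 fell under vehicle and 3 rose under BTKi, and of 7 precursor markers 1 fell under vehicle and 2 rose under BTKi. All 8 striatal neuron markers fell under vehicle (median -0.94), 3 of them without naive vehicle 2, and none was called under BTKi. Of 7 mural markers 1 rose in each arm, and of 8 meningeal fibroblast markers 1 rose under vehicle. None of 6 choroid plexus, 6 ependyma and 7 endothelium markers was called by limma in either arm, where all 6 choroid plexus and 2 ependyma markers under vehicle and 2 endothelium markers under BTKi had an unadjusted p under 0.05. The part of these cells in the connexin levels was not tested.

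The list of ion and water transport genes of the glial network held 11 genes. Under vehicle 2 rose and 1 fell in cuprizone mice. Mlc1, an astrocyte membrane protein gene whose human mutations cause a leukoencephalopathy, rose by 0.32 (SE 0.05, limma adjusted p = 5.3e-05), and Kcnj16, a potassium channel subunit gene, rose by 0.32 (SE 0.07, limma adjusted p = 0.0027). Slc12a2, the sodium-potassium-chloride cotransporter gene, fell by 0.53 (SE 0.10, limma adjusted p = 0.00037). Aqp4, the gene of the astrocyte water channel, had a log2 difference of 0.24 (limma adjusted p = 0.13), and of 0.37 without naive vehicle 2, where it was called (limma adjusted p = 0.012).

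Under BTKi 3 of these genes rose and none fell in cuprizone mice. They were Mlc1 by 0.38 (SE 0.05, limma adjusted p = 1.4e-05), Kcnj10, the gene of the main glial potassium channel, by 0.34 (SE 0.07, limma adjusted p = 0.00090), and Dtna, a scaffold of the perivascular endfoot, by 0.13 (SE 0.03, limma adjusted p = 0.0060). Aqp4 had a difference of 0.24 here (limma adjusted p = 0.19) and was called with only these groups in the fit (limma adjusted p = 0.030). The list's median log2 difference was 0.05 under vehicle and 0.08 under BTKi. Of 8 genes for junction scaffolds and regulators none was called by limma in either arm, where 1 in each had an unadjusted p under 0.05. Without naive vehicle 2, Ctnnb1, the beta-catenin gene, was called under vehicle at a log2 difference of 0.13 (limma adjusted p = 0.039), against 0.03 with it (limma adjusted p = 0.78). None of the genes of both lists was called by limma in either drug comparison, where 3 transport genes in naive mice had an unadjusted p under 0.05.

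Variation among libraries of the same group was described by subtracting the group mean from each log2 value and correlating over the 24 libraries. The libraries share their preparation and scaling, and these correlations are descriptions. Gjb1 and Gjc3 varied together (Pearson r 0.76, Spearman rho 0.80, and r 0.79 without the 2 libraries farthest in Gjb1). The astrocyte members did not pair as closely, with r 0.25 and rho 0.17 for Gja1 and Gjb6, and r 0.35 and rho 0.25 for Gjb6 and Gjb2. Gja1 went more closely with Gjb1 (r 0.50, rho 0.52, r 0.40 without the 2 farthest in Gja1) than with Gjb6.

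The score of the mature oligodendrocyte list went with Gjb1 (r 0.94, rho 0.91), with Gjc3 (r 0.82, rho 0.84) and with Gja1 (r 0.61, rho 0.57, r 0.49 without the 2 farthest libraries). Gja1 went as closely with the score of the ion and water transport list (r 0.64, rho 0.63, r 0.52 without the 2 farthest). Gjb6 went with the score of the general astrocyte list (r 0.64, rho 0.46, r 0.54 without the 2 farthest) and as closely with that of the endothelium list (r 0.64, rho 0.55, r 0.52 without the 2 farthest), and it ran against the ependyma list (r -0.51, rho -0.50, r -0.39 without the 2 farthest). With the mature oligodendrocyte list its r was 0.04, and 0.33 without the 2 farthest libraries. Gjb2, which the leptomeninges also express, went with the score of the meningeal fibroblast list (r 0.62, rho 0.57, r 0.59 without the 2 farthest) and hardly with the astrocyte list (r 0.04). The summed level of these 8 fibroblast markers was 38.8 to 58.2 FPKM in cuprizone BTKi, 33.1 to 63.9 in cuprizone vehicle, 39.8 to 74.8 in naive BTKi and 45.5 to 70.5 FPKM in naive vehicle libraries, with none at 0 throughout. Their part in the level of Gjb2 was not tested.

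**Figure D5:**
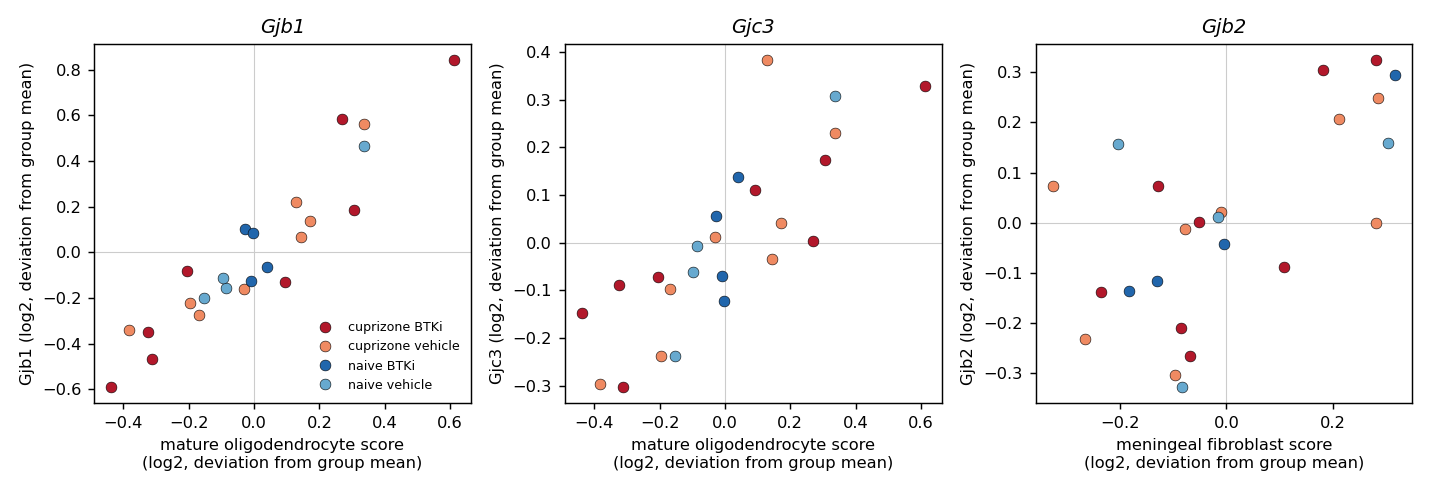
Deviation from the group mean in each of the 24 libraries (log2 units on both axes) for Gjb1 and Gjc3 against the mature oligodendrocyte score and for Gjb2 against the meningeal fibroblast score, coloured by group. Pearson r is 0.94, 0.82 and 0.62, and Gjb1 follows the oligodendrocyte score most tightly.

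The genes nearest to each member by this measure were taken as the 3 with the highest Pearson r among all genes tested. For Gjb1 they were Il33, an alarmin cytokine gene, Mag, a myelin glycoprotein gene, and Tmem88b (r 0.94, 0.94 and 0.93). For Gjc3 they were Gpr37, Cdc42ep2 and Tmem88b (r 0.88, 0.86 and 0.86). For Gjb6 they were Fam107a, Pth1r and Mroh1 (r 0.82, 0.80 and 0.79), and for Gja1 Zfp229, Gm37885 and Zcchc24 (r 0.76, 0.76 and 0.72). For Gjb2 they were Immp1l, Mgp, the matrix Gla protein gene, and Slc6a20a (r 0.79, 0.78 and 0.76), and for Gjd2 Tmem41b, Tarsl2 and Eif1a (r 0.79, 0.76 and 0.75). Being the highest of all genes tested, these r are high by the way they were chosen, and nothing is called particular from them.

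The promoters of the oligodendrocyte pair are shown because the pair varied together across libraries. RefSeq lists 4 starts for Gjb1 and 1 for Gjc3 on GRCm38.p6, and the 250 bases before the Gjb1 start nearest the coding sequence and before the Gjc3 start are printed, with motif matches in capitals:
Gjb1, chrX:101383482-101383731, plus strand: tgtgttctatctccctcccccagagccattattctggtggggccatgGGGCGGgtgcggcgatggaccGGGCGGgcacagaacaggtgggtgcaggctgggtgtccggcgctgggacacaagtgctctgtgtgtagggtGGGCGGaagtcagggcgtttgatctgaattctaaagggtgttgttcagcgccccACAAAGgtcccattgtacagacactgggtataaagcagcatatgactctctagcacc
Gjc3, chr5:137963099-137963348, minus strand: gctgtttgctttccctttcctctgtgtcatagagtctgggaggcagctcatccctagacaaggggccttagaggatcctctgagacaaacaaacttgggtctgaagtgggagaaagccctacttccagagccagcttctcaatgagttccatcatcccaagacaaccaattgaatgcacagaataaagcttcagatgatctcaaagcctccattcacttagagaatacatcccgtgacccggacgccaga
The motifs searched on both strands were ACAAAG, the core bound by Sox factors, TTCNNNGAA, the core bound by STAT factors, and GGGCGG, the GC box of Sp factors. The Gjb1 stretch held ACAAAG with its first base 57 bases before the start, and GGGCGG at 203, 182 and 111 bases before it, with no overlaps between matches. The Gjb1 starts that are not printed held fewer matches. Numbered along the plus strand, start 1 held ACAAAG at 176 bases before it, and starts 2 and 3 held none of the 3 motifs. The Gjc3 stretch held none of the 3 motifs. Of 32536 such windows of all mouse genes, 16.5% held ACAAAG, 7.04% TTCNNNGAA and 33.0% GGGCGG, so each of these matches is common, and a match in letters is not a binding site.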

How the data were processed

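Per the labels, polyadenylated RNA of corpus callosum was isolated with a Qiagen RNeasy Micro kit, and libraries were prepared with the TruSeq stranded mRNA kit. The authors deposited 1 table of FPKM for 54446 Ensembl gene IDs in 24 libraries. The sources used here do not name the aligner, the counting tool, its strand setting, the build or the gene models. Of the IDs, 54409 were matched to a symbol and 53229 to GENCODE M21 (GRCm38), whose coordinates are printed. FPKM is relative to the library total, so a larger share of fragments in some genes lowers the values of the rest.

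Depth was estimated from the steps between low values of 33354 genes with 1 transcript. Each library had 4302 to 4908 nonzero values of up to about 20 fragments among these genes. Of these values, 86.8% to 88.7% per library lay within 0.1 of a whole number of fragments. A step set beforehand would give 20.0% by chance. The step was fitted to the lower of these same values, so 20.0% is not its chance level. A fragment number assumes GENCODE exon lengths. FPKM are not counts, so no count test was run.

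Differences come from limma 3.58.1 in R 4.3.3 on log2(FPKM + 0.5), for the 15216 genes whose mean over all libraries reached 0.5 FPKM, with all 4 groups in 1 model, a variance trend and Benjamini-Hochberg adjustment at 0.05 within each comparison. The fit was tried on simulated data with independent genes and a normal spread equal in all groups. Such data meet the assumptions of the model. The trial therefore does not check genes that vary together or an outlying library such as naive vehicle 2. Python 3.11.15 (numpy 2.4.6, pandas 2.3.3, scipy 1.17.1, matplotlib 3.10.9) was used for summaries and plots. Sequences are from GENCODE M21 and RefSeq (GRCm38.p6).

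The members and lists were chosen with earlier results of these data known. Named are the members, the other connexins and pannexins that passed the filter, called genes of the transport and scaffold lists, the 3 genes nearest to each member, and the most abundant gene of a marker list. Trf, Ctnnb1 and Aqp4 were named after their values were seen. Some genes of these lists are not reported here. Alternatives were other pseudocounts, filters, scalings, the groups compared alone, the replicate number as a block and each library left out.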

Additional observations from a re-analysis of the deposited data

Results flagged for a closer look

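Of 40 combinations of a connexin or pannexin with a group, 3 held a library whose distance from the nearest other one exceeded the 95% critical value of Dixon's test, and chance alone gives about 1 in 20. Naive vehicle 2 had 20.6 FPKM of Gjb1, where the next of its 4 libraries had 13.6, and 4.71 FPKM of Gjc1, where the next had 2.35. The same library had the highest scores for mature oligodendrocyte and striatal neuron markers of its group, and their part was not tested. Naive BTKi 1 had 44.5 FPKM of Gja1, where the next of its 4 libraries had 42.4 FPKM.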

How the results depend on the processing

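No member changed direction in a called difference, and none moved by more than the spread between replicates. This covers 234 values from alternative fits and 720 from fits without 1 library, over all members and comparisons. Many of these values could not move. A changed filter, the groups compared alone, or leaving out a library outside the comparison leaves the difference as it was. Leaving out 1 library within it shifts a group mean by only part of that library's deviation, so this is a weak check. The call of Gja1 under vehicle ended with no filter, with the replicate block and without naive vehicle 2, naive vehicle 4 or cuprizone vehicle 8 (log2 difference -0.25 to -0.21 without 1 library). That of Gjb6 ended in 11 of 32 fits, among them both scalings and the fit of the groups compared alone (0.15 to 0.27 without 1 library). Deviations of BTKi and vehicle libraries with the same replicate number, within naive or cuprizone mice, correlated from -0.27 to 0.32. Pairs of unlike number were not compared, so whether the number marks a pairing or a batch is not known. The block therefore says nothing of a paired effect. With the replicate block the genes called for the drug effect in cuprizone minus that in naive mice numbered 9, against 19. With no filter on low values 16 genes were called for BTKi in cuprizone mice, against 27, and 21 in naive mice, against 33. Fitting only the groups compared gave 3 genes for BTKi in naive mice, and 1 of the other connexins and pannexins, Gjc1, for cuprizone under BTKi (limma adjusted p = 0.045), against none. Without 1 library the genes called ran from 14 to 34 for BTKi in cuprizone mice (over 1.5 times fewer without cuprizone BTKi 1, 3, 7 or 8 or cuprizone vehicle 2 or 4), from 7 to 41 in naive mice (without naive vehicle 2 or naive BTKi 1, 3 or 4) and from 8 to 23 for their difference (without naive vehicle 2 or 4 or naive BTKi 3 or 4), and the other connexins and pannexins called under BTKi from 0 to 1, the 1 being Gjc1 without naive vehicle 2. Dtna lost its call under BTKi without naive BTKi 1. Quantile normalization gave 1205 higher and 1072 lower calls for cuprizone under vehicle and 724 and 395 under BTKi. For BTKi it gave 8 and 13 calls in cuprizone mice, against 6 and 21, and 22 and 7 in naive mice, against 16 and 17. Depth limits Gjb2 and Gjd2 most, at a median of about 242 and 147 fragments.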
